A study of Mus musculus with 8 samples.

Results

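H3K27ac, acetylation of lysine 27 on histone H3, was mapped by chromatin immunoprecipitation and sequencing in nuclei from mouse skeletal muscle. The mice were wild type (WT), of strain C57/Bl6J and 10-12 weeks old, and no group had been treated. The antibody came from Active Motif, and the matching unprecipitated chromatin was Input1, which also served the glucocorticoid receptor (GR), RNA polymerase II (Pol2) and H3K4me1 libraries, while CTCF and H3K4me3 had Input2. Each of the 6 antibodies had 1 library and the samples were 8 in all, so that no value below has a replicate and no test was made. The nuclei came from whole muscle, so fibre nuclei and those of other cell types were measured together, and fewer cells of a type cannot be told apart from less acetylation per cell.

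All peaks of the H3K27ac list on chromosomes 1 to 19 and X were taken, which gave 44146 of the 189342 peaks of the 6 lists. They were described across 21755 protein-coding genes. A peak is a stretch of mm10 that the authors' caller found enriched, and the list gives its position only. Every value below is therefore a width or a count of bases inside peaks ("acetylated bases"), never a height. A gene without a peak is one where no enrichment passed the caller's threshold.

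H3K27ac is laid down by the acetyltransferases p300 and CBP on nucleosomes that flank active promoters and active enhancers, and it is removed by histone deacetylases. H3K4me3 marks promoters, and H3K4me1 marks enhancers whether active or not, so the acetyl mark is commonly used to tell active elements from silent ones. In a muscle fibre the elements in use include those of the contractile apparatus, which is made in fast and slow forms from separate genes.

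Starts with few CG dinucleotides seldom had H3K27ac, but those of some muscle genes did. The RefSeq promoters below (GRCm38.p6, 250 bases before to 50 after the start, 5′ to 3′) show both kinds, with every CG dinucleotide in capitals. They were picked with their values known and are not typical in width: over all genes, acetylated starts were wider where CG was frequent. Eno3 encodes the muscle form of enolase (chr11:70656926-70657225, plus strand) and Atp2a1 the calcium pump SERCA1 of fast fibres (chr7:126463024-126463323, minus strand). Vps4a (chr8:107031019-107031318, plus strand) works in endosomal sorting and Polr2e (chr10:80039610-80039909, minus strand) is a subunit of RNA polymerases. Lor (chr3:92083093-92083392, minus strand) and Ivl (chr3:92573686-92573985, minus strand) encode loricrin and involucrin of the skin's cornified envelope.
Eno3: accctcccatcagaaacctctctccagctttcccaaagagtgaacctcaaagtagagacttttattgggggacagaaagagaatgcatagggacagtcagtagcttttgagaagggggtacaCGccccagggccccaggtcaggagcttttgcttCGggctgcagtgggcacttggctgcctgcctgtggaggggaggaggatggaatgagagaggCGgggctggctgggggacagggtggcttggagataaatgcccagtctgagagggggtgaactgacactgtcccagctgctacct
Atp2a1: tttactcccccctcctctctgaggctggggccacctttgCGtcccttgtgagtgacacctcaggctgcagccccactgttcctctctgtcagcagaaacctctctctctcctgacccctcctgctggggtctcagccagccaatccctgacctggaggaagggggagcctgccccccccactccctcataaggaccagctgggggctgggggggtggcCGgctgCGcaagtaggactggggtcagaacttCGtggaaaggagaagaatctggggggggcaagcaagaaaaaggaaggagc
Vps4a: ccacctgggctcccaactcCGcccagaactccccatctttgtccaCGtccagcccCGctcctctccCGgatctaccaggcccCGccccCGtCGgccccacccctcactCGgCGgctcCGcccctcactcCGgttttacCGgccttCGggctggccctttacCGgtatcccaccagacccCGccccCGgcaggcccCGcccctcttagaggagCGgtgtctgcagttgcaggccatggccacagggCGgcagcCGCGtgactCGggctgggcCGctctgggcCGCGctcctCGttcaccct
Polr2e: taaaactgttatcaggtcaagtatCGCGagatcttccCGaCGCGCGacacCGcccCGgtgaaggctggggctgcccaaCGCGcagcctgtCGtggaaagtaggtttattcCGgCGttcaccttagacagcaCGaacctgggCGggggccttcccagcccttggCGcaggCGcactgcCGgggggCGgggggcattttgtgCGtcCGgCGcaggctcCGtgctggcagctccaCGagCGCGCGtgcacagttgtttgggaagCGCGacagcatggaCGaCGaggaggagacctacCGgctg
Lor: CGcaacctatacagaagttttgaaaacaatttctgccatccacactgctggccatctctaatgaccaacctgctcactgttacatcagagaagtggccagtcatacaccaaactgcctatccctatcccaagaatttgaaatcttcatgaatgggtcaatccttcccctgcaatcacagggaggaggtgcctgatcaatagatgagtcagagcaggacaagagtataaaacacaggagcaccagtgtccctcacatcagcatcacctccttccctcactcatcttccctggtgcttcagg
Ivl: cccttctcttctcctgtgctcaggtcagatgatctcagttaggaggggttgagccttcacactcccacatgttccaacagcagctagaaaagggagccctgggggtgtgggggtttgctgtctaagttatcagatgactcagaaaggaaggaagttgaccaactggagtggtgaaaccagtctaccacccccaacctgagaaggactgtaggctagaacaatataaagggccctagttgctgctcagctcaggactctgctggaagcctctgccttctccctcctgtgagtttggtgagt
Eno3 had 3 CG dinucleotides and 2001 acetylated bases, the whole window of 1 kb to each side of the start. Atp2a1 had 4 and 1848 acetylated bases. The CG-rich promoters of Vps4a (26 CG) and Polr2e (32 CG) had 644 and 337 acetylated bases, under the medians of 780 for Vps genes and 746 for RNA polymerase II genes. Lor (1 CG) and Ivl (0 CG) had 0. Over 26794 RefSeq symbols the median promoter held 22 CG dinucleotides where it was acetylated and 4 where it was not.

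At the gene's 5′ end (the transcription start site, TSS, with 1 kb to each side), 10729 of the 21755 genes had H3K27ac, or 49.3% (exact Clopper-Pearson 95% interval 48.7% to 50%). In the gene body 11803 genes (54.3%) had some, and within 25 kb outside the gene 13311 genes (61.2%) did. No peak lay at the TSS, in the body or within 25 kb of 6899 genes (31.7%). Where the TSS was acetylated the median was 897 of 2001 bases, with quartiles at 559 and 1261. At least 1000 bases were acetylated at 4497 genes (20.7%), and the whole window was at 133. These intervals treat genes as independent, cover counting error only, and say nothing of the spread between mice.

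The body figure drew largely on the promoter, since it came to 28.5% once the first 1 kb of each gene was left out. The flank figure drew largely on neighbours: 74.7% of the acetylated flank bases lay inside another protein-coding gene or within 1 kb of its TSS, and 35.9% of genes had flanking H3K27ac without those bases. Acetylated bases per kb were far denser at starts than elsewhere. The TSS windows made up 1.56% of the chromosomes and held 37.8% of the 23.2 Mb of acetylated bases. Gene bodies farther from a start held 44.9%, sequence outside genes within 25 kb held 10.5%, and the 44.2% of sequence farther than 25 kb from any gene held 6.77%. Of these compartments, 21.4%, 1.03%, 0.588% and 0.135% of the bases were acetylated.

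Around the TSS the mark had 2 humps with a dip between them. Across all genes the share acetylated was 28.1% at 275 bases upstream, 18.0% at 75 bases upstream and 43.2% at 175 bases downstream. Nucleosomes are commonly missing just upstream of an active start, as background. Of the 10729 acetylated genes, 8328 (77.6%) had more acetylated bases downstream of the start than upstream, with medians of 581 and 295 bases. The fast and Z-disc lists were wide as well as frequent. At 2025 bases downstream 75% of the 12 fast fibre sarcomere genes and 66.7% of the 24 genes of the giant, Z-disc and M-band proteins were still acetylated, against 7.06% of the 85 cytosolic ribosomal protein genes, 8.33% of the 12 slow fibre sarcomere genes and 4.04% of all genes.

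**Figure D1:**
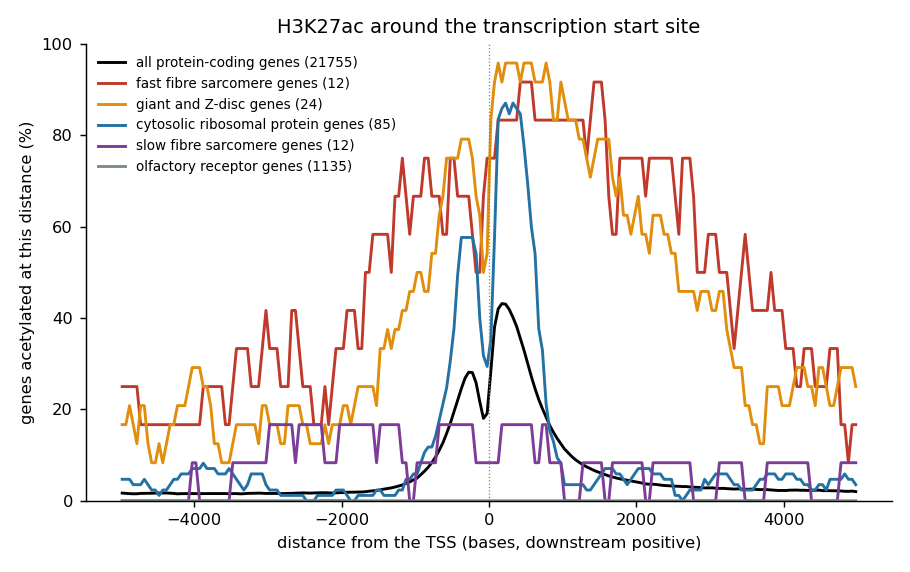
Share of genes with an acetylated base (%, vertical axis) against distance from the TSS in bases (horizontal axis, downstream positive), for all 21755 genes and 5 lists whose sizes are in the legend. All genes show the dip of 18.0% at 75 bases upstream, the fast and Z-disc lines stay high beyond 2 kb downstream, and the olfactory receptor line lies at 0 over the start.

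Fast fibre sarcomere genes had an acetylated TSS in 11 of 12 members (91.7%, interval 61.5% to 99.8%), against 49.3% of all genes, and 10 of the 12 had 1000 bases or more, against 20.7% of all genes. Their median was 1768 acetylated bases. Mylk2, the myosin light chain kinase of skeletal muscle, had 2001 bases at its TSS. The troponin subunit genes Tnni2, Tnnc2 and Tnnt3 had 1933, 1784 and 1745, and Mylpf, a regulatory light chain of fast myosin, had 1921. Tpm1 (tropomyosin) had 1914 and Mybpc2 (fast myosin-binding protein C) 1883. Actn3, the alpha-actinin of fast fibres, had 1752. Low values in the list were the light chain gene Myl1, with 1042 at its 5′ end and 1839 at a start 10071 bases away, and the heavy chains Myh1 (358) and Myh2 (0).

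The slow counterparts differed. Only 3 of 12 slow fibre sarcomere genes had an acetylated TSS (25%, interval 5.49% to 57.2%), with a median of 0 bases. They were Atp2a2 (1310 bases), which encodes the calcium pump SERCA2, the slow troponin I gene Tnni1 (1003), and Mybpc1 (732), the slow myosin-binding protein C gene. The slow heavy chain Myh7, the slow light chain Myl2 and the slow troponin genes Tnnt1 and Tnnc1 had 0 at every annotated start. At 11 of the 12 there was H3K27ac within 25 kb, but the median flank held 0 acetylated bases once other genes and their starts were left out. Tpm3 had 1283 bases at a start 7066 bases from its 5′ end. With any annotated start the slow list came to 41.7%, and the fast list came to 83.3% with the wider 50% of peaks. The labels do not name the muscles sampled.

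The myosin heavy chain genes of chromosome 11, which include no slow form, differed among themselves. Myh4, the heavy chain of the fastest fibres (chr11:67238029-67260446), had 1733 acetylated bases at its TSS and 1772 in its body. Myh1 (chr11:67200052-67224575), for the next fast form, had 358 and 2068, with 7 peaks in its body. Myh2, the fast oxidative form, and the neonatal gene Myh8 had 0 at the TSS and 0 in the body, although Pol2 covered 209 bases at the TSS of Myh2 and 0 at Myh8. The embryonic gene Myh3 also had 0 in both, but 15815 acetylated bases lay within 25 kb outside it, all outside other protein-coding genes. Among all 14 sarcomeric and cytoplasmic heavy chain genes 5 had an acetylated TSS, of which Myh9 (1404), Myh10 (1149) and Myh14 (533) encode non-muscle myosins.

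Giant, Z-disc and M-band genes had an acetylated TSS in 23 of 24 members (95.8%, interval 78.9% to 99.9%), with a median of 1750 bases, and 21 of the 24 had 1000 bases or more. Ttn, which encodes the molecular spring titin, had 1839 bases at the TSS and 8930 in a body of 278568 bases. Des (desmin, the intermediate filament of muscle) and Flnc (filamin C) had 2001 each. Myom1 and Myot had 1921 and 1900, and the Z-disc gene Tcap 1915. The member without acetylation at its 5′ end was Neb, for nebulin along the thin filament, whose start 42712 bases downstream carried 1905. Its body held 11498 acetylated bases in 20 peaks.

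Calcium handling genes were acetylated at 17 of 20 starts, with a median of 1406 bases. The junctional gene Jph2 had 1890 bases at the TSS and 29496 across its body, or 47.8% of the gene. Stim1, a calcium sensor, had 1901, Casq1 (calsequestrin of fast fibres) 1869, and the release channel gene Ryr1 1493. Pvalb, for the calcium buffer parvalbumin, had 1350 at the 5′ end and 69.5% of its body acetylated. Casq2, the calsequestrin of slow fibres and heart, and Sln (sarcolipin) had 0 at the TSS, in the body and within 25 kb. Trdn (triadin) had 0 at the 5′ end and 1887 at another start. Dystrophin complex genes were acetylated at 14 of 17 starts, from Dag1 (2001) and Dtna (1796) to Dmd itself (492). Neuromuscular junction genes were at 8 of 14, near the 49.3% of all genes.

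**Figure D2:**
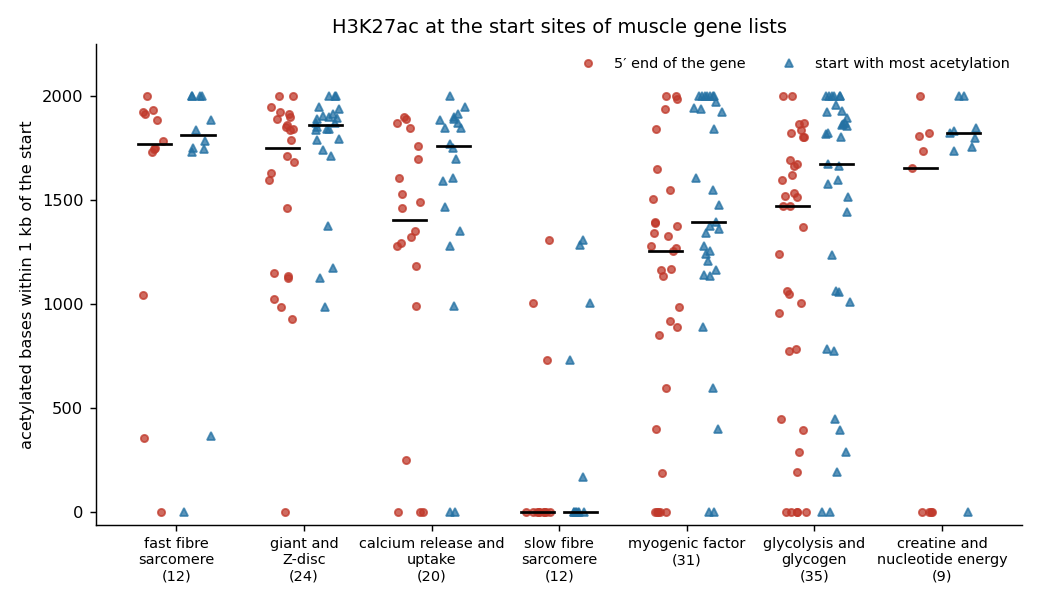
Acetylated bases within 1 kb of the start (vertical axis) for each member of 7 muscle gene lists, at the gene's 5′ end (circles) and at its annotated start with the most acetylated bases (triangles), with medians as black bars and list sizes in parentheses. Most fast, Z-disc and calcium members sit above 1000 at the 5′ end, 9 of the 12 slow members sit at 0, and several points at 0 move up when another start is used.

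That change of start matters for some of the best known muscle genes. The annotated 5′ end of 763 genes had no H3K27ac while another annotated start of the same gene did. Ckm, for muscle creatine kinase (chr7:19404776-19422841), had 0 at the 5′ end and 1797 bases at a start 6249 bases away. Mb, for the oxygen store myoglobin (chr15:77015487-77050670), had 0 and 1830, at a distance of 28707 bases. Ak1 (adenylate kinase) and Ldha (lactate dehydrogenase A) had 0 and 2001 each. Capn3, a muscle protease, had 0 and 1936, and the muscle methyltransferase gene Smyd1 0 and 2001. With any annotated start allowed, creatine and nucleotide energy genes went from 5 of 9 to 88.9% and all genes from 49.3% to 52.8%.

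The acetylated starts of some muscle genes hold the letters that myogenic factors bind. The promoters below (RefSeq, GRCm38.p6, 5′ to 3′) are those of Ckm (chr7:19410844-19411143, plus strand), the skeletal actin gene Acta1 (chr8:123894726-123895025, minus strand) and Mylpf (chr7:127211358-127211657, plus strand). Capitals mark CAGCTG, the E-box bound by MyoD and myogenin, which reads the same on both strands. These promoters were picked to show it and do not tell how common it is.
Ckm: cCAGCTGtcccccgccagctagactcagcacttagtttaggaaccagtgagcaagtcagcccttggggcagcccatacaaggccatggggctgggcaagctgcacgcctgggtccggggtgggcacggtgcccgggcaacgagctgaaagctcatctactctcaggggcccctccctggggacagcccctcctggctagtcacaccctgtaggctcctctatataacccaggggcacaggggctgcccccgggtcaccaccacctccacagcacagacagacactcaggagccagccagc
Acta1: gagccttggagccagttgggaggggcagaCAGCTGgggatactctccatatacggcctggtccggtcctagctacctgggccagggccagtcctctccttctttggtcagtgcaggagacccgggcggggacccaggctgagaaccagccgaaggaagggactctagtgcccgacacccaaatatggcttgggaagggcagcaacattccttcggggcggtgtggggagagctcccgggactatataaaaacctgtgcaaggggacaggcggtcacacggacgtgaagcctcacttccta
Mylpf: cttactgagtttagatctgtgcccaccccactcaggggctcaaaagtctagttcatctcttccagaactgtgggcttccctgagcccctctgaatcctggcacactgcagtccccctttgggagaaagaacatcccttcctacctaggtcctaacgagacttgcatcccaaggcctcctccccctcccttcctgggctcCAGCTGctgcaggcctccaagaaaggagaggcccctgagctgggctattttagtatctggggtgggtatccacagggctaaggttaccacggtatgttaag
Around these starts the acetylated bases were 1797 for Ckm, 1755 for Acta1 and 1936 for Mylpf. In windows of the same 300 bases at the GENCODE 5′ ends, CAGCTG was found in 20 of the 56 fast, Z-disc and calcium genes (35.7%) and in 15.4% of all 21755 promoters. The MEF2 box, searched on both strands, was found in 10 of the 56 (17.9%) and in 2.85% of all. The ETS site CCGGAAGT and the NRF1 site GCATGCGC were in 0 of the 56 (interval 0 to 6.38%), and in 4.73% and 3.40% of all promoters, so that this difference was within counting error. A match is a run of letters only. It was not tested whether any factor was bound there.

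Regulators of muscle were also above the 49.3% of all genes: 26 of 31 myogenic factor genes had an acetylated TSS (83.9%), with a median of 1253 bases. Of the 4 myogenic bHLH genes, Myod1 (chr7:46376474-46379099) and Myf6 (chr10:107492853-107494737) had 2001 bases each. Myog (chr1:134289989-134292548) had 1341, with 0 bases of H3K4me3 and 0 of Pol2 in the same window. Myf5 had 0, with 7739 acetylated bases within 25 kb, a range that takes in Myf6. Mef2a, Mef2d and Mef2c, partners of the bHLH factors, had 1985, 1937 and 1843. The nuclear factor I gene Nfix had 45742 acetylated bases in 66 peaks along its body, and Nfib and Nfic, with 0 at the 5′ end, had 21899 and 25990 in the body. Kruppel-like factor genes were acetylated at 14 of 17 starts, with Klf9 and Klf10 at 2001. Genes of glycolysis and glycogen were at 30 of 35 (median 1470), among them Pygm (1822), Gys1 (1802) and Pfkm (956 at the TSS, 21554 in the body). Fatty acid oxidation genes were at 27 of 29 (median 1142).

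Of 16 housekeeping families, 14 had over 75% of members acetylated at the TSS, the exceptions being Rab genes of vesicle traffic (41 of 59) and the mixed Trim ubiquitin ligase genes (31 of 68, under the 49.3% of all genes). Usp (42 of 55), Fbxo (28 of 36) and complex III to V genes (38 of 45) lay between these and the fullest families. All 34 Vps genes of vesicle sorting and all 13 genes of RNA polymerase II subunits had an acetylated TSS, with medians of 780 and 746 bases. Mitochondrial ribosomal protein genes had 76 of 78 (median 761), complex I genes 35 of 36 (1005), cytosolic ribosomal protein genes 80 of 85 (869) and Ube2 genes 31 of 33 (1195). Several exceptions were relatives with their own use or had another acetylated start. Rpl10l and Rpl39l, copies of ribosomal protein genes known from testis, had 0 everywhere measured, whereas Rpl17, Rps10 and Rps2 had 870, 612 and 810 at another start. Both mitochondrial exceptions, Mrpl35 and Mrps24, had 466 and 550 at another start. Of the 87 families ranked, 11 had over 90% of members acetylated at the TSS. The number was 18 with any annotated start, and 3 when only the wider 50% of peaks were used.

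**Figure D3:**
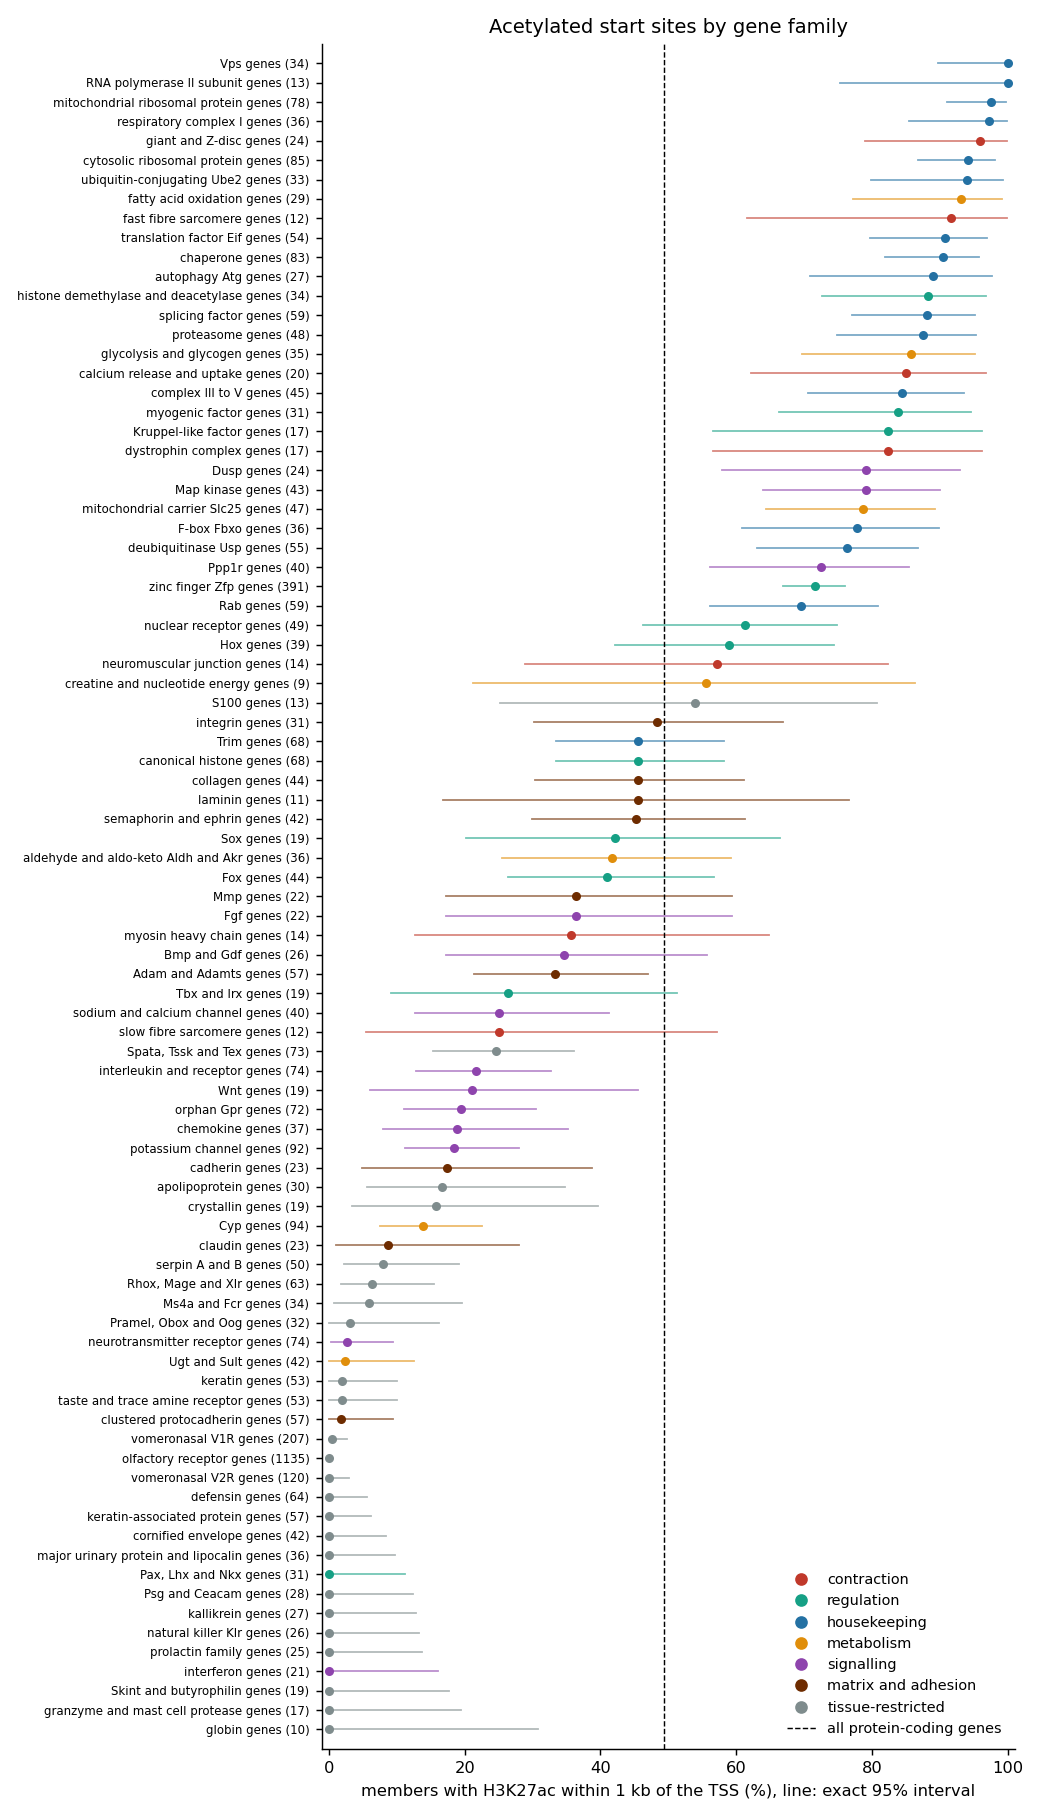
Share of members with H3K27ac within 1 kb of the TSS (%, horizontal axis) for 87 gene families with member numbers in parentheses, coloured by role, with exact 95% intervals over members and the 49.3% of all genes as a dashed line. Vps and RNA polymerase II genes stand at 100%, and 15 families stand at 0.

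At the other end, 15 families with 1658 members had no acetylated TSS at all, where 49.3% of all genes had one. Of those members 1570 had no H3K27ac within 25 kb either, against 31.7% of all genes. Olfactory receptor genes, which are used singly in neurons of the nose, had 0 of 1135 acetylated starts, and 95.7% had nothing within 25 kb. Their median distance to the nearest peak was 355 kb. Vomeronasal V2R genes had 0 of 120, keratin-associated protein genes of hair 0 of 57, defensin genes 0 of 64, and genes of the major urinary proteins and lipocalins 0 of 36. The 42 cornified envelope genes and 25 prolactin family genes had nothing in the gene or within 25 kb, and their nearest peaks lay at medians of 846 kb and 1089 kb. Natural killer Klr genes (0 of 26), granzyme and mast cell protease genes (0 of 17) and globin genes (0 of 10), which belong to blood cells, had none at the TSS. With a window of 2 kb the number of such families was 13. Of the 15, all but the Pax, Lhx and Nkx genes had a low median CpG ratio (observed over expected CG dinucleotides near the TSS). It lay in the lowest 2 deciles of genes, where 3.95% of starts were acetylated. Of the families named in this paragraph, only olfactory receptor and V2R genes had intervals below that share (up to 0.324% and 3.03%).

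Single members stood out in families that otherwise had little. Tas1r1, a subunit of the umami taste receptor, had 1133 bases at its TSS, the only one of 53 taste and trace amine receptor genes. Outside other protein-coding genes and their starts lay 388 of the 779 acetylated bases in its body and 132 of the 7307 in its flank. Vmn1r4 had 832, as the only one of 207 V1R genes, but its body held 0 acetylated bases outside other genes. Krt80 had 767 among 53 keratin genes, and Pcdhgc3 had 955 among 57 clustered protocadherin genes. Sult1a1, a sulfotransferase, had 1183 among 42 Ugt and Sult genes, and Fcgrt, the neonatal Fc receptor, had 1326 among 34 Ms4a and Fcr genes. Olfactory and pheromone receptor families hold many near-identical copies, where reads that match several places may not have been placed.

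Families of developmental regulators split. All 31 Pax, Lhx and Nkx genes had 0 at the TSS, where 49.3% of all genes had some. Of the 31, 80.6% had nothing within 25 kb, against 31.7% of all genes. At the TSS 10 of the 31 (32.3%) had H3K4me3 and 24 (77.4%) had H3K4me1, against 58.1% and 60.9% of all genes. Pax7, the satellite cell factor, was one of these, with 1032 bases of H3K4me3 and 0 acetylated. The Hox genes, which keep the position code of the embryo, had an acetylated TSS in 23 of 39 (59.0%). Its interval of 42.1% to 74.4% includes the 49.3% of all genes. The clusters differed: Hoxa had 11 of 11 (median 698), Hoxc 5 of 9 (1153), Hoxd 5 of 9 (234) and Hoxb 2 of 10 (0). Hoxc10, Hoxa7 and Hoxc5 had 1866, 1778 and 1733. The Hoxc5 model (chr15:102967443-103017429) begins inside Hoxc10 (chr15:102966796-102971893), so their windows overlap and share acetylated bases. Both genes enter the Hoxc count. Only 1055 of the 15700 acetylated bases in the Hoxc5 body lay outside other genes. The median flank held 13024 acetylated bases for Hoxa, 12511 for Hoxc and 340 for Hoxb, but such flanks largely count the neighbouring Hox genes: over all 39 genes the median was 2988, and 130 without other genes and their starts. H3K4me3 was at 11 of 11 Hoxa starts and 5 of 10 Hoxb starts, and Pol2 at 3 and 0. Canonical histone genes, most of which are used in dividing cells, had 31 of 68 acetylated (45.6%), near the share of all genes. H3K4me3 was at 55 of them (80.9%, against 58.1% of all genes). Wnt genes had 4 of 19, potassium channel genes 17 of 92 and neurotransmitter receptor genes 2 of 74.

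Markers of other cell types in muscle were checked in the same list, where 49.3% of all genes had an acetylated TSS. Of 12 fibro-adipogenic and fibroblast markers 10 had an acetylated TSS, from Lum (183) to Dcn (1529), with Col1a1 at 1009 and Pdgfra at 774, but the median of 441 bases lay under the 1768 of the fast sarcomere list. Endothelial markers had 5 of 12 (highest Esam, 861, with Pecam1, Cldn5 and Vwf at 0). Immune markers had 1 of 14 (Cd14, 48 bases, with Ptprc at 0) and adipocyte markers 1 of 10 (Pparg, 226, with Adipoq at 0). Satellite cell markers had 5 of 11, of which Des is also a fibre gene, and Pax7, Myf5 and Calcr were at 0. Smooth muscle markers had 3 of 8, again including Des. The endothelial, satellite cell and smooth muscle shares (41.7%, 45.5% and 37.5%) had intervals that include the 49.3% of all genes. Cardiac markers had 1 of 10 (Myl4, 952) and liver markers 0 of 12. Schwann cell and neuron markers had 2 of 12. How far cells other than fibres contribute to any result was not tested.

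By single genes, the widest start regions were not those of sarcomere genes alone. Among the 133 genes acetylated over the whole TSS window, those with the most bases in the body were Fgfr2, Zbtb16, Hivep2, Mknk2, Vdac1, Adssl1, Filip1l, Bcl6, Gm49356 and 1700025G04Rik. Vdac1 encodes the channel of the outer mitochondrial membrane, and Adssl1 a muscle enzyme of the purine nucleotide cycle, with 12482 acetylated bases over 58.6% of its body. Zbtb16 (chr9:48654297-48836222), a zinc finger repressor, had 63562 acetylated bases in 78 peaks, or 34.9% of the gene, all outside other protein-coding genes. The models of Fgfr2 (2960900 bases) and Gm20388 (4434882 bases) span many other genes, and only 1687 of 79741 and 23817 of 144255 acetylated bases lay outside those. Filip1l and Gm49356 had none of theirs outside other genes. The Fgfr2 start counted here is the 5′ end of its long model. Of the 1387 acetylated bases in its flank, which includes the upstream part of its TSS window, 0 lay outside other protein-coding genes and their starts.

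Other genes with much acetylation in the body were Nfix, Tns1 (40733 bases), Gse1 (37846), Mbnl1 (37040), Cuedc1 (35007), Jph2 and Trak1 (28817). Tns1, for the focal adhesion protein tensin, and Mbnl1, the splicing factor tied to myotonic dystrophy, had 0 at the 5′ end and 2001 and 1962 at another start. Gse1 lies within the Gm20388 model. The genes covered nearly end to end were mostly short. The bodies of Cebpd (a transcription factor), Lbx1 (a homeobox factor of limb muscle precursors) and Phlda3 were acetylated over 100% of 3746, 3129 and 3018 bases. Mknk2, a kinase that phosphorylates the translation factor eIF4E, followed with 98.1% of 12786 bases, and Txnip, an arrestin that restrains glucose uptake, with 97.7%. Ankrd9, Frat2, Irf2bp2, Tnfrsf12a and Drap1 had 97.5%, 97.1%, 96.7%, 96.1% and 96.0%. Of the 20199 genes of 2 kb or more, 172 were acetylated over at least 50% of the body, and the median among genes with any was 3.26%.

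The largest flanks gathered in a few neighbourhoods. Phf5a (22533 bases), Tob2 (21576) and Tef (20395), a clock output factor, lie close together on chromosome 15 and count the same peaks. The others were Asb8 (22165), the clock repressor Nr1d1 (21885), Hoxc9 (21137), Frmd8 (21133), Des (20927), Btbd2 (20299), which neighbours Mknk2, and Tnnt3 (20240). Much of this lay in other protein-coding genes or at their starts. In all such counts only protein-coding genes were left out, so bases in non-coding genes were kept. Without those bases Asb8 had 3283, Tnnt3 3712, Btbd2 4077, Hoxc9 6554, Phf5a 7479, Nr1d1 9830 and Des 11434, whereas Frmd8, Tob2 and Tef had 20332, 18747 and 17516.

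The widest single peak, of 12853 bases, lay in the body of Nfic (chr10:81410327-81423179), 17276 bases from the nearest protein-coding 5′ end. H3K4me1 covered all of it and H3K4me3 773 bases. A peak of 10567 bases lay in the body of Zbtb16 (chr9:48727007-48737573), 98649 bases from the 5′ end, with H3K4me1 over all of it, Pol2 over 8403 bases and no H3K4me3. Of the next 8, those over a gene's 5′ end were at Setd1b (9657 bases), Bcl6 (8578), Phlda3 (8001) and Smtnl2 (7432). Setd1b encodes a subunit of an H3K4 methyltransferase complex and Bcl6 a repressor. Those away from any 5′ end lay in Mknk2 (9047), Cuedc1 (8644), Zeb2 (7989) and H6pd (7404), whose product supplies NADPH for glucocorticoid activation. Other annotated starts were not counted in this, and the Mknk2 peak covers one, 6136 bases from the gene's 5′ end. H3K4me3 covered 2378, 2159, 5193 and 1057 bases of these peaks in the same order. The median peak had 341 bases, 10% had 152 or less and 10% had 1088 or more. The 1084 narrowest had 130.

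Peaks near starts and away from them differed in the other marks. Within 1 kb of a TSS lay 15119 peaks (34.2%, interval 33.8% to 34.7%), with a median of 487 bases. Of these 94.6% overlapped H3K4me3 by at least 1 base, 68.2% H3K4me1 and 74.7% Pol2. The 20542 peaks in gene bodies farther from a start had a median of 281 bases, and 19.6% of them overlapped H3K4me3, 93.3% H3K4me1 and 15.8% Pol2. GR peaks touched 63.5% of the first and 22.2% of the second. When each annotated start counted, 44.0% of peaks were near a TSS.

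Over all H3K27ac peaks, 84.1% overlapped H3K4me1 (interval 83.8% to 84.5%), 45.4% H3K4me3 (45.0% to 45.9%) and 36.4% Pol2 (35.9% to 36.8%), while 2.33% had neither histone mark. H3K4me1 covered 182 Mb and H3K4me3 20.8 Mb, so a peak had more room to meet the former. The Pol2 share was 5.33% when 50% of the H3K27ac peak had to be covered, since Pol2 peaks had a median of 212 bases. In the other direction, H3K27ac lay on 86.0% of Pol2 peaks, 72.0% of H3K4me3 peaks, 69.3% of GR peaks, 23.2% of H3K4me1 peaks and 20.7% of CTCF peaks.

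**Figure D4:**
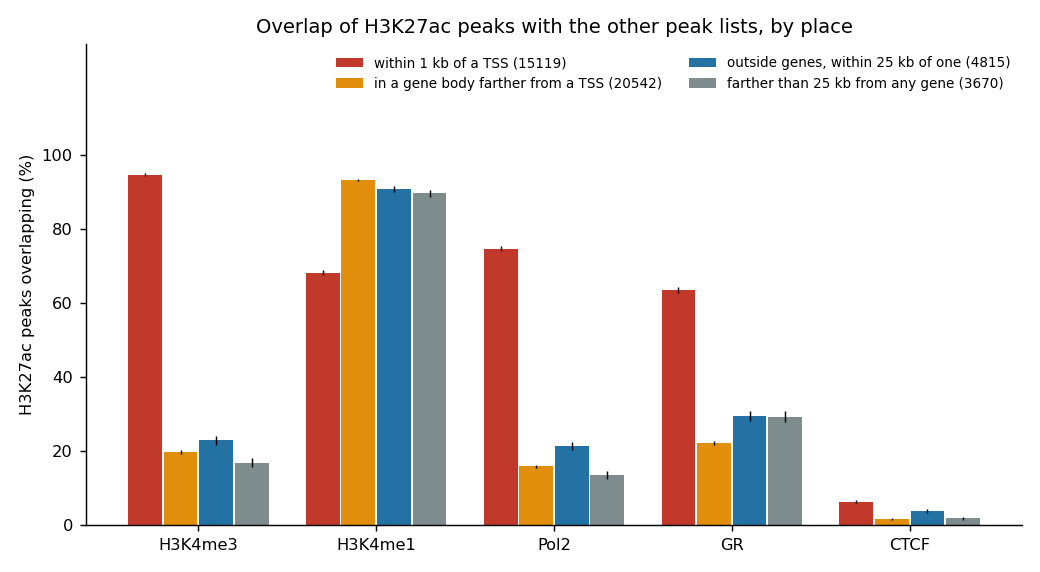
Share of H3K27ac peaks overlapping each other list by at least 1 base (%, vertical axis), for peaks in 4 places with their numbers in the legend and exact 95% intervals over peaks as error bars. H3K4me3 was overlapped by 94.6% of peaks near a TSS and by under 25% elsewhere, while H3K4me1 was above 89% away from starts.

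Gene by gene, H3K27ac was at nearly all starts that had both H3K4me3 and Pol2. Of the 9509 genes with both H3K4me3 and Pol2 at the TSS, 98.5% were acetylated (median 956 bases, 1000 or more at 45.9%). Of the 3141 with H3K4me3 but no Pol2, 39.0% were, with a median of 400 bases among those acetylated. Of the 9048 with neither, 1.19% were. The share was 54.4% in the 57 genes with Pol2 alone. The lists share tissue and, for Pol2, the input. Across genes, which are not replicates, Spearman's rho of acetylated bases was 0.90 with Pol2 bases and 0.89 with H3K4me3 bases (n = 21755), where many genes are at 0 for both, and 0.64 and 0.67 where both were above 0 (n = 9396 and 10590).

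Acetylated starts without H3K4me3 numbered 139, and the widest of them were at Phyhd1, Gm16253, Mea1 and Btbd19 (2001, 2001, 1998 and 1946 bases), named after their values were seen. H3K4me1 filled the window at all 4, and Pol2 was present at the first 3. The bodies and flanks of Phyhd1 and Mea1, which include these windows, had 0 acetylated bases outside other protein-coding genes and their starts. In the bodies of Gm16253 and Btbd19, 888 of 1580 and 2012 of 2012 acetylated bases lay outside them.

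CpG content sorted the starts. The CpG ratio, which compares observed with expected CG dinucleotides within 500 bases of the TSS, was cut into deciles of genes. In the lowest decile 1.88% of starts were acetylated, in the fifth 46.1% and in the highest 90.4%. Among acetylated starts the median rose in that order from 312 to 667 and 1153 bases. Some muscle lists stood off this line. The fast, Z-disc and calcium lists had 91.7%, 95.8% and 85% acetylated at median ratios of 0.263, 0.34 and 0.292. Their deciles had 11.5%, 23.9% and 23.9% of genes acetylated. The 56 fast, Z-disc and calcium genes had a median ratio of 0.318, and the housekeeping families 0.751. Myogenic factor genes had 83.9% acetylated at a median ratio of 0.690, in a decile with 77.7% of genes acetylated. For Kruppel-like factor genes these values were 82.4%, 0.872 and 86.9%. The intervals of these lists (66.3% to 94.5% and 56.6% to 96.2%) include the share of their decile. Glycolysis and glycogen genes had 85.7% at 0.606 and fatty acid oxidation genes 93.1% at 0.621, in a decile with 65.9%. Of the 4351 genes in the lowest 2 deciles, 172 were acetylated (3.95%) and 52 had 1000 bases or more. The contraction, myogenic, glycolysis and energy lists had 25 genes in those deciles, of which 12 were acetylated, and they gave 10 of the 52. Others among the 52, named after their values were seen, are also known from muscle: Dmpk (2001 bases), Art1 (1916), Klhl30 (1825), Nmrk2 (1818), Trim72 (1781) and Clcn1 (1532), the chloride channel of the fibre membrane. At the other extreme, 208 genes of the highest decile had no H3K27ac at the TSS, and 170 of these had H3K4me3.

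**Figure D5:**
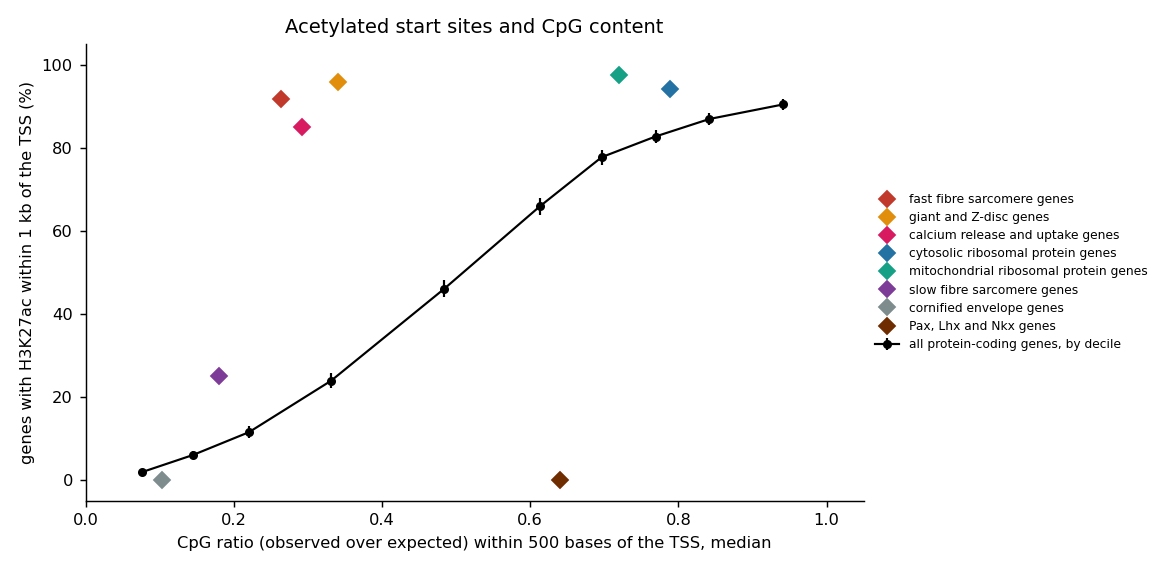
Share of genes with H3K27ac within 1 kb of the TSS (%, vertical axis) against the median CpG ratio within 500 bases of the TSS (horizontal axis), for deciles of all genes (line, with exact 95% intervals) and 8 gene families (diamonds). The line climbs from 1.88% to 90.4%. The fast, Z-disc and calcium lists sit above it at low ratios, and the Pax, Lhx and Nkx genes sit at 0 despite a ratio above 0.6.

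Promoter letters differed along with CpG content. In 300-base promoters GGGCGG, the GC box, was in 64.1% of acetylated and 23.2% of unacetylated starts, and CCGGAAGT in 8.51% and 1.06%. Among starts with a CpG ratio of 0.6 or more, the GC box was in 70.9% and 67.6%, and CCGGAAGT in 9.80% and 2.22%. TATAAA, the TATA box, was in 6.79% of acetylated and 18.4% of unacetylated starts, and in 5.83% and 8.37% at a CpG ratio of 0.6 or more. Over all starts CAGCTG was in 14.7% of acetylated and 16.2% of unacetylated ones, and the MEF2 box in 1.99% and 3.67%. Within CpG classes this did not hold. At a CpG ratio under 0.6 CAGCTG was in 20.7% and 16.8%, and the MEF2 box in 4.23% and 4.14%. At 0.6 or more the shares were 12.9% and 13.1% for CAGCTG, and 1.33% and 1.27% for the MEF2 box. At the midpoints of peaks away from starts (200 bases), CAGCTG was in 14.7% of 29026 windows, and in 9.76% of 26096 windows placed 10 kb to the right and free of H3K27ac. Median GC content there was 51.0% and 46.0%, so base composition differed along with the motif. The MEF2 box went the other way, with 1.93% and 3.23%. TGANTCA, the AP-1 site, was in 5.53% and 5.95%. Both strands were searched.

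Divergent pairs were acetylated more often. Of 1487 genes with an opposite-strand TSS upstream within 1 kb, 91.1% had H3K27ac (interval 89.5% to 92.5%), against 46.3% of the rest (45.6% to 46.9%). The windows of such a pair overlap, so the same acetylated bases can count for both genes. Among genes with a CpG ratio of 0.6 or more the shares were 95.8% and 80.2%. By gene length, the share was lowest in the shortest decile (23.4%) and highest in the ninth (62.5%).

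Chromosome X stood below every autosome. It had 4.53 peaks per Mb, against 12.6 (chromosome 14) to 33.0 (chromosome 11), and 30.5% of its 948 genes had an acetylated TSS, against 39.4% to 58.0%. Where the TSS was acetylated the median was 612 bases on X and 801 to 967 on the autosomes, while the median peak width on X, 329 bases, lay within the autosomes' range. H3K4me3 was at 40.7% of TSS on X and at 47.1% or more on each autosome, and Pol2 at 24.7% and at 35.9% or more. X held 5.80 protein-coding genes per Mb, and the autosomes 5.50 (chromosome 12) to 14.3 (chromosome 7). The list also held 5 peaks on Y, and the number of X copies per nucleus was not taken into account.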

How the data were processed

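Chromatin from skeletal muscle nuclei of WT C57/Bl6J mice was sequenced from 10 ng of DNA after 7 PCR cycles, per the labels' protocols. Bowtie 1.0.0, MACS2, bcl2fastq 2.17.1.14 and build mm10 are listed, without their roles, per the submitters' processing notes. The deposited H3K27ac file gives peak positions only, with no other measurement, so each value used is a peak start and end as deposited by the authors. Not given in the sources used here were peak height, read totals, the handling of duplicate and multiply placed reads, blacklist filters and the caller's threshold. Depth is therefore unknown. Each list stands for 1 library. The file held 44151 peaks, with 5 on Y and 0 on the mitochondrial genome. Peaks did not overlap each other.

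Acetylated bases were summed with Python 3.11.15 code (numpy 2.4.6, pandas 2.3.3; intervals by scipy 1.17.1) over protein-coding genes of GENCODE M21 (GRCm38, the sequence of mm10; all peaks lay within its chromosome lengths) in the TSS window, the body and 25 kb outside it. The sums were checked against a base-by-base count on simulated intervals. Families, defined by symbol patterns, were ranked with 5 or more members. Named genes are the 10 highest per measure, the 10 widest peaks, up to 3 members per family with the exceptions in nearly full or nearly empty families, and a fixed list. Genes outside this rule are marked as named after their values were seen, or are further members of a list. Members and lists were chosen with earlier results of these data known. Promoter sequences are from RefSeq.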

Additional observations from a re-analysis of the deposited data

Results flagged for a closer look

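The H3K27ac list also held 5 peaks on the Y chromosome, which lies outside the chromosomes described above and was not used in any share. With no control list to set them against, they are given as found. Widths ran from 133 to 517 bases. Of the 5, the one at Kdm5d covered its TSS, and those at Eif2s3y, Uty and Ddx3y began within 50, 73 and 100 bases of theirs, while the last lay 9115 bases from the TSS of Uba1y. Kdm5d, Uty, Eif2s3y and Ddx3y are known as broadly used Y-linked genes.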

How the results depend on the processing

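Genes with an acetylated TSS came to 48.3% with 500 bases to each side, 50.3% with 2 kb, 52.8% with any annotated start, 47.2% at 200 bases or more, 41.7% with the wider 50% of peaks, 52.3% without Gm and Rik genes and 48.5% with RefSeq genes. The body share was 28.5% without the first 1 kb and 45.3% with the wider peaks. The flank share was 51.1% at 10 kb, 69.9% at 50 kb, 35.9% without other genes and 53.2% with the wider peaks. Genes with none came to 37.6% at 10 kb, 25.8% at 50 kb and 38.6% with the wider peaks. Overlap with H3K4me3, H3K4me1 and Pol2 was 42.9%, 76.8% and 5.33% when 50% of a peak had to be covered, and 61.4%, 81.4% and 58.7% for the wider peaks. Peaks near a TSS came to 44.0% with any start. Families over 90% numbered 18 with any start and 3 with the wider peaks, while families with none numbered 13 to 15. Of the 42 fixed genes, 11 had other TSS values at their best start and 5 with the wider peaks. Shares of the fast, slow, Z-disc, calcium, Hox, olfactory, Pax and energy lists under these settings were added after seeing the data: 83.3% to 91.7% of fast and 25% to 41.7% of slow sarcomere genes were acetylated. No paired analysis was possible because each antibody had 1 library. No left-out replicate could be tried either. The list gives no depth, so a missing peak is not shown to be missing acetylation.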

Other observations

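Long stretches of chromosome had no H3K27ac peak at all (the 10 longest were picked after seeing the data). The longest, of 12.6 Mb on chromosome 15 (chr15:12825259-25413509), holds 6 protein-coding genes, 5 of which are the cadherin genes Cdh6, Cdh9, Cdh10, Cdh12 and Cdh18. The same stretch held 12 H3K4me1 and 6 H3K4me3 peaks. A stretch of 10.7 Mb on chromosome 14 holds Klhl1, Pcdh9 and Pcdh20, and another there of 8.68 Mb holds Slitrk1, Slitrk5 and Slitrk6, which are known from neurons. On chromosome 8 a stretch of 8.21 Mb holds Cdh8 and Cdh11 only. Of the 10 longest, 4 lie on X, and the densest of them in genes, with 49, holds 27 predicted Gm genes and copies of Btbd35f.

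Width fell along the list as deposited. Its median was 1047 bases in the first 10% of peaks and 176 in the last 10%. No label or header says what the order stands for.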
